A study of Mus musculus with 18 samples.

Results

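Cytosolic ribosomal protein genes were read on 18 Affymetrix MoGene 2.0 arrays of sorted mouse thymic invariant natural killer T (iNKT) cells. A gene was included when at least 1 probe set named it alone, with a symbol of Rpl, Rps or Rplp followed by a digit, and S6 kinases and symbols containing -ps were left out. The choice used symbols and no measured value. It gave 68 of the 22180 genes that had a probe set of their own: 32 large subunit proteins, 22 small subunit proteins, 3 stalk proteins, 9 paralogs or like genes, and 2 genes whose product is not a ribosomal protein (Rps19bp1, a binding partner of the small subunit protein RPS19, and Rps23rg1, a retrogene of Rps23). Each gene was read from its brightest probe set, the one with the highest mean over all arrays. A gene was tested when that probe set lay above the median of its own array on at least 3 arrays, and 62 of the 68 passed.

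The arrays came from Cd4Cre Mst1fl/fl mice (Mst1KO) and wild-type mice (WT), both C57BL/6 and of an age the labels do not give, with 3 arrays at each of 3 stages. Mst1, whose gene symbol is Stk4, is a kinase of the Hippo pathway, and the Cre is driven by Cd4, which thymocytes switch on before they become iNKT cells. Stage 1 (S1) cells were sorted as CD44- NK1.1-, stage 2 (S2) as CD44+ NK1.1- and stage 3 (S3) as CD44+ NK1.1+. All were CD24- cells that stained for TCRb and the PBS57-loaded CD1d tetramer, after thymocytes had been through CD8 microbeads. The series states 3 mice per genotype, and which arrays came from the same mouse is not in the labels. The p-values therefore reflect the variation among these arrays only.

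Cytosolic ribosomes are built from a small subunit, which reads the mRNA, and a large subunit, which joins amino acids and carries a flexible stalk that recruits elongation factors. Their protein mRNAs are among the most abundant in most cells, are usually held close to one another in amount, and commonly begin with a run of pyrimidines that lets mTORC1 signaling adjust their translation without a change in mRNA level. In mouse thymus the large subunit protein gene Rpl22 is needed for alpha-beta T cell development.

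The run of pyrimidines can be seen at the annotated starts of some of the genes described here. The 4 genes that were lower at S3 in both genotypes and the 3 that were lower in Mst1KO at S3 are shown, as 20 bases before and 20 bases from the start on the coding strand (RefSeq, GRCm38.p6). Capitals mark a C within 5 bases of the start that is followed by at least 4 more pyrimidines, and a sequence without capitals has no such run.
Rps26 (chr10:128626487-128626526, minus strand): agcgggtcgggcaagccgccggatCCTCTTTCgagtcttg
Rps27l (chr9:66946066-66946105, plus strand): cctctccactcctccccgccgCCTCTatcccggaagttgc
Rpl28 (chr7:4792945-4792984, plus strand): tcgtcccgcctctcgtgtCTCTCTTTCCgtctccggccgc
Rps25 (chr9:44407694-44407733, plus strand): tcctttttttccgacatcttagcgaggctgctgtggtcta
Rps18 (chr17:33955646-33955685, minus strand): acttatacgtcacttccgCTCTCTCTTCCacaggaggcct
Rpl9 (chr5:65391412-65391451, minus strand): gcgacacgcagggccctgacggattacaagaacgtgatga
Rps24 (chr14:24490658-24490697, plus strand): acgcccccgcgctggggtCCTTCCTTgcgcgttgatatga
Of the 68 genes, 53 had an entry in this table, and 23 of the 53 (43.4%) held such a run, against 18.5% of the 27025 genes of the whole table and 21.7% of 69 mitochondrial ribosomal protein genes. The motif CCGGAAG, which ETS factors such as GABP bind, was searched on both strands from 250 bases before to 50 bases after the start. It occurred in 39.6% of the 53, 36.2% of the mitochondrial set and 9.12% of the table. ANATGGCG, a YY1 motif, occurred in 11.3% of the 53, 15.9% of the mitochondrial set and 3.84% of the table. CACGTG, the E-box, occurred in 5.66% of the 53, 7.25% of the mitochondrial set and 7.24% of the table, and TATAAA in 9.43%, 5.8% and 14.2%. A match is only a match of letters. Of the genes shown, Rps26, Rps27l, Rpl28, Rps18 and Rps24 hold such a run, and Rps25 and Rpl9 do not. Rps6, which was called in no comparison, holds one. The search read the first listed start of each gene, and Rps25 has pyrimidines further before that start than the search reached. Whether the run goes with the calls was not tested.

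The targeted gene was checked first. Stk4 averaged 7.61, 7.48 and 7.66 on the log2 scale at S1, S2 and S3 in Mst1KO cells, against 7.90, 7.83 and 8.04 in WT cells. It was lower in Mst1KO at each stage, by 0.29, 0.35 and 0.39, and none of the 3 differences passed in the limma fit over all genes (adjusted p = 0.34, 0.173 and 0.0767). Where this probe set lies relative to the floxed part was not examined. Arrays of 1 group correlated at 0.980 to 0.990 over all genes tested. All 8 iNKT cell markers passed the filter, and no marker of B cells, erythroid cells or thymic epithelium did. Klrb1c, 1 of the 8, averaged only 2.90 in Mst1KO and 3.08 in WT at S1. Another, Slamf6, was called higher in Mst1KO at S3 (1.69, adjusted p = 0.0148, limma), with means of 9.84 in Mst1KO and 8.15 in WT. At S3, 5 of the 8 were above WT and 3 below. The mean level of 7 macrophage and dendritic cell markers was 6.18 to 6.68 in Mst1KO S3 arrays and 5.73 to 5.83 in Mst1KO S2 arrays, against 5.87 to 6.06 in WT S3 arrays and 5.31 to 5.36 in WT S2 arrays. Of these, Itgax was called higher in Mst1KO at S2 (0.93, adjusted p = 0.0191) and C1qb at S3 (0.94, adjusted p = 0.0364). The mean of 2 gamma-delta T cell markers was 6.65 to 6.94 in Mst1KO S3 arrays and 7.31 to 7.58 in Mst1KO S2 arrays, against 6.13 to 6.24 in WT S3 arrays and 7.05 to 7.20 in WT S2 arrays. Cd163l1 of that list was called higher in Mst1KO at S2 (0.64, adjusted p = 0.0154) and S3 (1.03, adjusted p = 7.88e-05, limma). Sox13, the other tested marker of that list, differed by -0.042 at S2 and 0.18 at S3 and was not called. Of the NK and innate lymphoid list, Tyrobp was called higher in Mst1KO at S3 (0.88, adjusted p = 0.0193, limma). The other tested markers of this list, Ncr1 and Fcer1g, were lower there (-0.91 and -0.34) and not called. The part of these markers in the results below was not tested. These are bulk sorts, in which fewer cells of a type and less RNA per cell cannot be told apart.

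The ribosomal protein genes had a smaller median range over the groups than all genes tested. Mean log2 levels of their probe sets, which also depend on each probe set's affinity, ran between 4.90 and 12.97, and 29 of the 62 genes were above 10, 24 between 6 and 10, and 9 below 6. The highest minus the lowest of the 6 group means had a median of 0.2998 over these genes and 0.411 over all 13034 genes tested, and 31 of the 62 stayed under 0.3. The SD within groups had a median of 0.117 for these genes against 0.167 for all genes. It was 0.0621 for the 29 genes above 10 and 0.184 for the 33 genes up to 10. Rps6, the small subunit protein that S6 kinase phosphorylates, averaged 12.85, 12.92 and 12.86 at S1, S2 and S3 in Mst1KO and 12.93, 12.94 and 12.91 in WT, a range of 0.0866 (largest SD 0.0297, n = 3). Rps19, a small subunit protein mutated in Diamond-Blackfan anaemia, had a range of 0.089.

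The comparison of Mst1KO with WT asks whether loss of the kinase changed the ribosomal protein mRNAs at each stage. At S1 and S2 no ribosomal protein gene passed in either direction, and at S3 Rps18, Rpl9 and Rps24 fell in Mst1KO, by 1.41-, 1.32- and 1.27-fold. At S2 and at S3, 48 of the 62 genes were below WT, most by small amounts that did not pass the test.

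At S3, 3 of 62 genes were called lower and 0 higher in Mst1KO (limma, adjusted p under 0.05), where 3.4% of all genes were called and 1.05% were called lower. At an unadjusted p under 0.05, 9 were lower and 1 higher, 10 of 62 where 16.7% of all genes passed, so this count is near the background. The calls were 0 of 62 at S2, where 1.17% of all genes were called, and 0 of 62 at S1, where 0.33% were. The unadjusted counts there were 8 lower and 0 higher at S2, where 13.4% of all genes passed, and 6 lower and 4 higher at S1, where 11.2% did.

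Rps18 encodes a protein of the small subunit's head. It read 9.10, 9.35 and 9.49 in the Mst1KO S3 arrays, against 9.88, 9.71 and 9.85 in the WT S3 arrays, with every Mst1KO array below every WT array. The log2 difference was -0.50 ± 0.13 (SE, 1.41-fold lower, adjusted p = 0.0415, limma). At S1 it was 0.29 ± 0.13 in the other direction (adjusted p = 0.398).

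Rpl9, a large subunit protein near the base of the stalk, read 9.98, 10.21 and 10.04 in Mst1KO S3 arrays, against 10.45, 10.49 and 10.50 in WT S3 arrays. The groups did not overlap, and the difference was -0.41 ± 0.10 (1.32-fold lower, adjusted p = 0.0364, limma). The Mst1KO mean was also below WT at S1 (difference -0.33, adjusted p = 0.188) and at S2 (difference -0.29, adjusted p = 0.193).

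Rps24, a small subunit protein that is mutated in some patients with Diamond-Blackfan anaemia, read 9.41, 9.63 and 9.47 in Mst1KO S3 arrays, against 9.87, 9.79 and 9.89 in WT S3 arrays. All 3 Mst1KO arrays were below the lowest WT array, and the difference was -0.34 ± 0.09 (1.27-fold lower, adjusted p = 0.0457, limma).

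These 3 calls lay close to the threshold. Each was kept in 1 of the 6 fits that left out an array of either group: Rps18 without Mst1KO S3 replicate 3 (adjusted p = 0.0478), and Rpl9 and Rps24 without Mst1KO S3 replicate 2 (0.0387 and 0.0427). In the other 5 fits of each gene the adjusted p lay between 0.0554 and 0.177. The differences kept their sign and lay between -0.30 and -0.59 in all of these fits. Without a filter on dim probe sets, 0 of the 3 were called.

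Other probe sets of the same genes showed a smaller fall or none. A second Rps18 probe set, with a mean level of 5.30, differed by 0.21 at S3 (Mst1KO minus WT), and a second Rpl9 probe set, at 5.50, by -0.018. Both are dim, as the array medians were 4.81 to 4.93. Rps24 had further probe sets at 8.58 and 7.17, which differed by 0.009 and -0.22. With the probe sets of a gene averaged, none of the 3 genes was called (adjusted p = 0.546, 0.219 and 0.301 for Rps18, Rpl9 and Rps24).

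**Figure D1:**
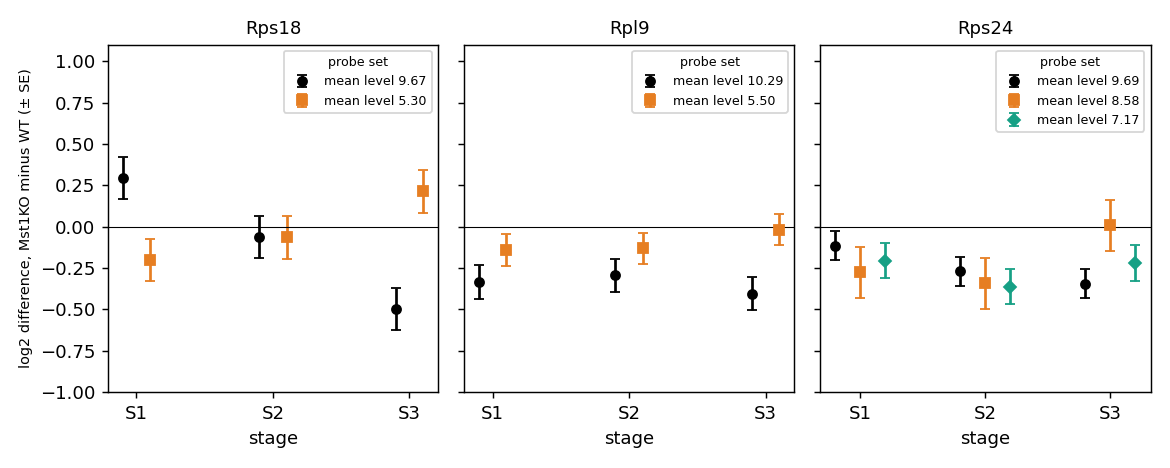
Difference in log2 level, Mst1KO minus WT, at each stage (horizontal axis) for every tested probe set of Rps18, Rpl9 and Rps24, with SE from limma (n = 3 arrays per group); each symbol is 1 probe set, named by its mean level. The brightest probe set (black) is lowest at S3 for Rps18 (-0.50), Rpl9 (-0.41) and Rps24 (-0.34), and the other Rps18 probe set is above 0 there (0.21).

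The genes as a group are described by their counts and medians. The median difference between Mst1KO and WT was -0.076 at S3, -0.052 at S2 and -0.007 at S1, against 0.010, 0.014 and 0.007 for all genes. At S3, 48 of 62 genes were below 0, and again 48 of 62 at S2, against 33 of 62 at S1. Every Mst1KO array was below every WT array for 22 of 62 genes at S3 (9.79% of all genes), 15 at S2 (7.12%) and 7 at S1 (7.9%). Every Mst1KO array was above every WT array for 1 gene at each of S3 (13.2%), S2 (9.68%) and S1 (10.2%). Both subunits leaned the same way at S3, with 25 of 30 large subunit and 17 of 21 small subunit genes below 0. The S3 median stayed negative under each of 3 other scalings (-0.071 to -0.136), and so did the S2 median (-0.029 to -0.068). The S1 median changed sign (-0.048 to 0.018).

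**Figure D2:**
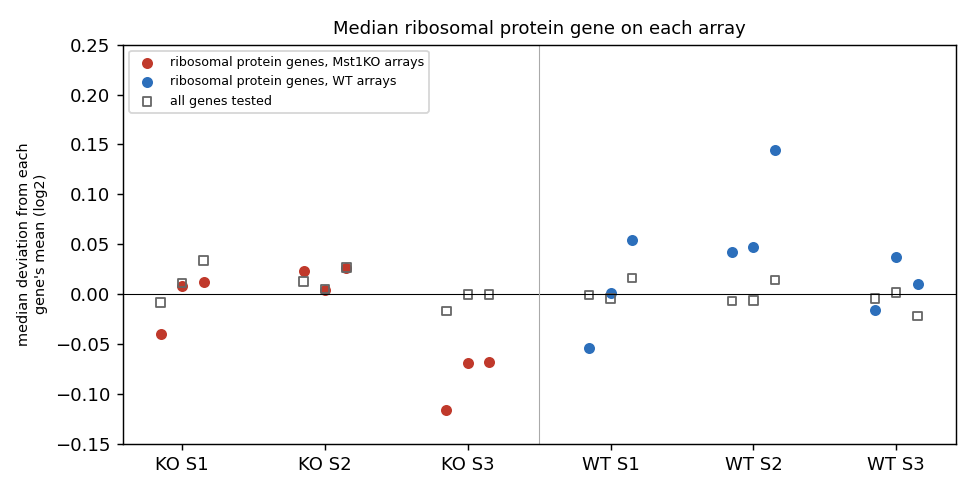
Median over the 62 ribosomal protein genes of the deviation from each gene's own mean, on the log2 scale, for each array (filled circles; Mst1KO red, WT blue; KO stands for Mst1KO), with the same over all 13034 genes tested (open squares). The 3 Mst1KO S3 arrays sit between -0.116 and -0.068, below all other arrays, and 1 WT S2 array stands highest at 0.145.

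Among genes followed for their own sake, Rpl7, a large subunit protein, was lower in Mst1KO at all 3 stages without being called. It read 11.40, 11.14 and 11.20 in Mst1KO S2 arrays and 11.61, 11.54 and 11.62 in WT S2 arrays. The S2 difference was -0.35 ± 0.08 (adjusted p = 0.0553, limma), and it was -0.23 at S1 and -0.15 at S3. Over the other fits the S2 difference lay between -0.42 and -0.19 (adjusted p = 0.00457 to 0.577), called in 3 of 10 other settings and 0 of 6 fits without an array. A second, dim Rpl7 probe set (mean level 4.72) differed by 0.047 at S3, and with the probe sets averaged the S2 difference was not called. Rps4x, the X-linked gene for a small subunit protein, differed by -0.12, -0.14 and -0.17 at S1, S2 and S3, with Mst1KO and WT arrays apart at each stage and no call (adjusted p = 0.609, 0.423 and 0.258). Rpl39, a very short large subunit protein at the exit tunnel, differed by -0.38 ± 0.17 at S1 (adjusted p = 0.413). The difference was -0.69 ± 0.17 at S2 (adjusted p = 0.0607) and -0.047 at S3. Its probe set is dim, with a mean level of 5.48 where the array medians were 4.81 to 4.93.

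The comparisons between stages within a genotype ask how these mRNAs change as iNKT cells mature. No gene passed between S2 and S1. At S3 a small set fell in both genotypes: Rps26, Rps27l and Rpl28 against S2, and these with Rps25 against S1. Lower calls against S2 numbered 8 of 62 in Mst1KO (9.18% of all genes) and 5 in WT (13.2%). Against S1 they numbered 6 of 62 in each genotype (14.4% of all genes in Mst1KO and 18.4% in WT). Only the share against S2 in Mst1KO (12.9%) was above that of all genes. Rps16, Rpl22l1, Rpl38 and Rpl13 rose against S1 in WT, 4 of 62 where 15.4% of all genes were called higher. No gene was called higher at S3 in Mst1KO. None of these 4 was called for a genotype difference in the S1 to S3 change (adjusted p = 0.328 to 0.725, limma).

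Between S2 and S1, 0 of 62 genes were called in Mst1KO, where 6.67% of all genes were, and 0 of 62 in WT, where 3.84% were (limma; 3 and 7 genes at an unadjusted p under 0.05, all higher at S2, where 19.9% and 16.4% of all genes passed). The median difference was 0.030 in Mst1KO and 0.071 in WT, against -0.0003 and -0.009 over all genes. In WT, 52 of 62 genes were above 0, and for 15 of 62 every S2 array was above every S1 array (10.1% of all genes), while 0 were wholly below (9.81%). In Mst1KO, 38 of 62 were above 0, and the arrays were apart for 6 higher genes (12.7%) and 1 lower gene (13.1%).

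Against S2, S3 cells had 8 of 62 genes called lower and 0 higher in Mst1KO, where 17.2% of all genes were called and 9.18% were lower. In WT, 5 of 62 were lower and 0 higher, where 23.6% were called and 13.2% were lower. The called genes were Rpl3, Rpl37a, Rps18, Rps25, Rpl32, Rps26, Rps27l and Rpl28 in Mst1KO, and Rpl5, Rps27l, Rps26, Rpl28 and Rpl15 in WT. The lists share 3 genes, 37.5% of the Mst1KO list and 60% of the WT list. The same overlap over all genes was not counted, so whether this sharing is usual cannot be said. In Mst1KO, every S3 array was below every S2 array for 27 genes (20.1% of all genes) and above for 4 (16.2%). In WT these numbers were 14 (18.7%) and 0 (16.3%). The median difference was -0.109 in Mst1KO and -0.078 in WT, against -0.026 and -0.001 for all genes, and 49 and 44 of the 62 genes were below 0.

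Against S1, S3 cells had 6 of 62 called lower and 0 higher in Mst1KO, where 26.6% of all genes were called and 14.4% were lower. In WT, 6 were lower and 4 higher, where 33.8% were called, 18.4% lower and 15.4% higher. The lower genes were Rps25, Rps18, Rps26, Rps27l, Rpl3 and Rpl28 in Mst1KO, and Rpl5, Rps27l, Rps26, Rps25, Rpl28 and Rpl15 in WT. They share 4 genes, 66.7% of each list, and here too the overlap over all genes was not counted. The arrays were apart for 15 lower (22.5%) and 5 higher genes (20.1%) in Mst1KO, and for 11 lower (23.8%) and 9 higher (20.8%) in WT, shares close to or below those of all genes. Repeating quantile normalization gave 1 higher and 8 lower calls in Mst1KO in place of 0 and 6. The comparisons with S1 and with S2 use the same S3 arrays. Markers of other cells also moved with stage: the mean level of 3 NK and innate lymphoid cell markers, which S3 iNKT cells share, was 7.14 to 7.45 on S3 arrays against 5.15 to 5.35 on S1 arrays in Mst1KO, and 7.35 to 7.61 against 5.08 to 5.27 in WT. The mean of 6 conventional T cell and immature thymocyte markers was lower on S3 arrays than on S1 arrays. It was 6.67 to 6.79 against 8.18 to 8.51 in Mst1KO, and 6.42 to 6.70 against 7.96 to 8.19 in WT. Igfbp4, Ccr7, Lef1 and Cd4 of this list were lower at S3 in both genotypes. Dntt went the other way in both, with means of 4.39 at S1 and 5.78 at S3 in Mst1KO. Cd8b1 was lower at S3 in Mst1KO and differed little in WT (6.52 at S1 and 6.57 at S3). Macrophage and dendritic cell markers were at 6.18 to 6.68 on S3 arrays against 5.04 to 5.20 on S1 arrays in Mst1KO, and 5.87 to 6.06 against 4.94 to 5.19 in WT. Gamma-delta T cell markers were at 6.65 to 6.94 on S3 arrays against 7.23 to 7.48 on S1 arrays in Mst1KO, and 6.13 to 6.24 against 7.12 to 7.48 in WT. The part of these markers in the stage results was not tested.

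**Figure D3:**
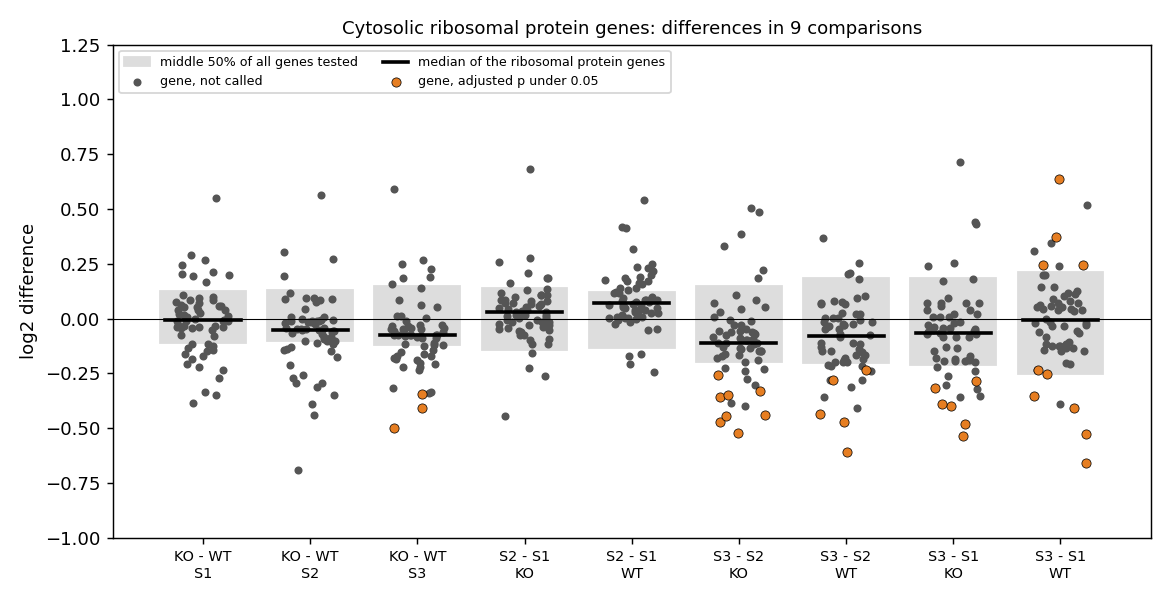
Log2 difference of each of the 62 ribosomal protein genes (points) in the 9 comparisons on the horizontal axis, named as group minus group (KO stands for Mst1KO), with their median (black line) and the range between the quartiles of all 13034 genes tested (grey). Called genes (orange, adjusted p under 0.05) number 3, 8 and 6 in the Mst1KO comparisons at S3 with WT, S2 and S1, and 5 and 10 in WT S3 with S2 and S1.

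Rps26 lies at the mRNA exit channel of the small subunit. It read 11.06, 11.20 and 11.09 on the S1 arrays, 11.06, 11.04 and 11.10 on the S2 arrays and 10.68, 10.67 and 10.80 on the S3 arrays in Mst1KO. In WT it read 11.08, 11.16 and 11.23 on the S1 arrays, 11.16, 11.14 and 11.25 on the S2 arrays and 10.70, 10.72 and 10.82 on the S3 arrays. All 6 S3 arrays were below all 12 earlier arrays. Against S1 the difference was -0.40 ± 0.08 in Mst1KO (adjusted p = 0.00108) and -0.41 ± 0.08 in WT (adjusted p = 0.000622, limma), and against S2 it was -0.35 in Mst1KO and -0.44 in WT. All 4 calls held in every fit that left out an array. Averaging with a dim second probe set (mean level 5.59) took away the call in Mst1KO against both stages and in WT against S1 (adjusted p = 0.0940, 0.273 and 0.114).

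Rps27l is a paralog of the small subunit protein gene Rps27, and in human cells it is a target of p53. Its levels were 7.63, 7.86 and 7.76 on the S1 arrays, 7.68, 7.74 and 7.65 on the S2 arrays and 7.40, 7.34 and 7.34 on the S3 arrays in Mst1KO. In WT they were 7.89, 7.78 and 7.98 on the S1 arrays, 7.61, 7.89 and 7.99 on the S2 arrays and 7.22, 7.42 and 7.43 on the S3 arrays. Every S3 array was below every S1 and S2 array. Against S1 it fell by 0.39 ± 0.10 in Mst1KO (adjusted p = 0.00944) and by 0.53 ± 0.10 in WT (adjusted p = 0.000719, limma), and both calls held under each alternative tried and without any 1 array. The fall of 0.33 against S2 in Mst1KO (adjusted p = 0.0376) was lost without any 1 of the 6 arrays (adjusted p = 0.0662 to 0.110). Rps27 itself did not pass: its probe set read 6.46, 6.37 and 7.07 at S3 in Mst1KO and 7.03, 5.86 and 6.33 at S3 in WT, and 5.69, 6.33 and 5.74 at S1 in Mst1KO. Its difference between S3 and S1 was 0.71 ± 0.27 in Mst1KO (adjusted p = 0.0603), opposite in sign to that of Rps27l, and 0.34 in WT (adjusted p = 0.367). In Mst1KO it passed in 5 of 11 other settings and in 1 of 6 fits without an array, that without Mst1KO S1 replicate 2 (adjusted p = 0.0317, and 0.0570 to 0.242 in the other 5).

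Rpl28 is a large subunit protein that has no counterpart in budding yeast. In Mst1KO it read 12.13, 12.19 and 12.20 on the S1 arrays, 12.14, 12.15 and 12.16 on the S2 arrays and 11.83, 11.91 and 11.94 on the S3 arrays. In WT it read 12.10, 12.17 and 12.29 on the S1 arrays, 12.13, 12.23 and 12.29 on the S2 arrays and 11.92, 11.93 and 11.95 on the S3 arrays. The S3 arrays lay below all others in both genotypes, and the gene fell against S1 by 0.28 ± 0.08 in Mst1KO (adjusted p = 0.0101) and by 0.25 ± 0.08 in WT (adjusted p = 0.0165, limma). The Mst1KO call against S1 held in every alternative and every fit without 1 array, and the WT call was lost without WT S1 replicate 3 (adjusted p = 0.0798), with median centring (0.0506) and with only the groups compared in the fit (0.0909). The fall against S2 in Mst1KO (adjusted p = 0.0276) was kept in 1 of 6 fits without an array, the one without Mst1KO S3 replicate 3 (adjusted p = 0.0464).

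Rps25 is a small subunit protein needed for initiation at some internal ribosome entry sites. It read 9.04, 9.17 and 9.17 on the S1 arrays, 9.03, 9.04 and 9.03 on the S2 arrays and 8.51, 8.53 and 8.74 on the S3 arrays in Mst1KO. In WT it read 8.93, 8.95 and 9.19 on the S1 arrays, 8.87, 8.93 and 9.28 on the S2 arrays and 8.40, 8.73 and 8.88 on the S3 arrays. In Mst1KO the S3 arrays lay well below the S1 and S2 arrays, whereas in WT the highest S3 array lay just below the lowest S1 array and overlapped S2. The difference from S1 was -0.53 ± 0.13 in Mst1KO (adjusted p = 0.00499), kept in all 11 other settings and without any 1 array, and -0.35 ± 0.13 in WT (adjusted p = 0.0433), kept in 7 of 11 other settings and, among the 6 fits that left out an array, only without WT S3 replicate 3 (adjusted p = 0.0174, and 0.0514 to 0.224 in the other 5). The fall of 0.44 against S2 in Mst1KO (adjusted p = 0.0263) was kept in all 11 other settings and in 1 of 6 fits without an array, that without Mst1KO S3 replicate 3 (adjusted p = 0.0253).

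**Figure D4:**
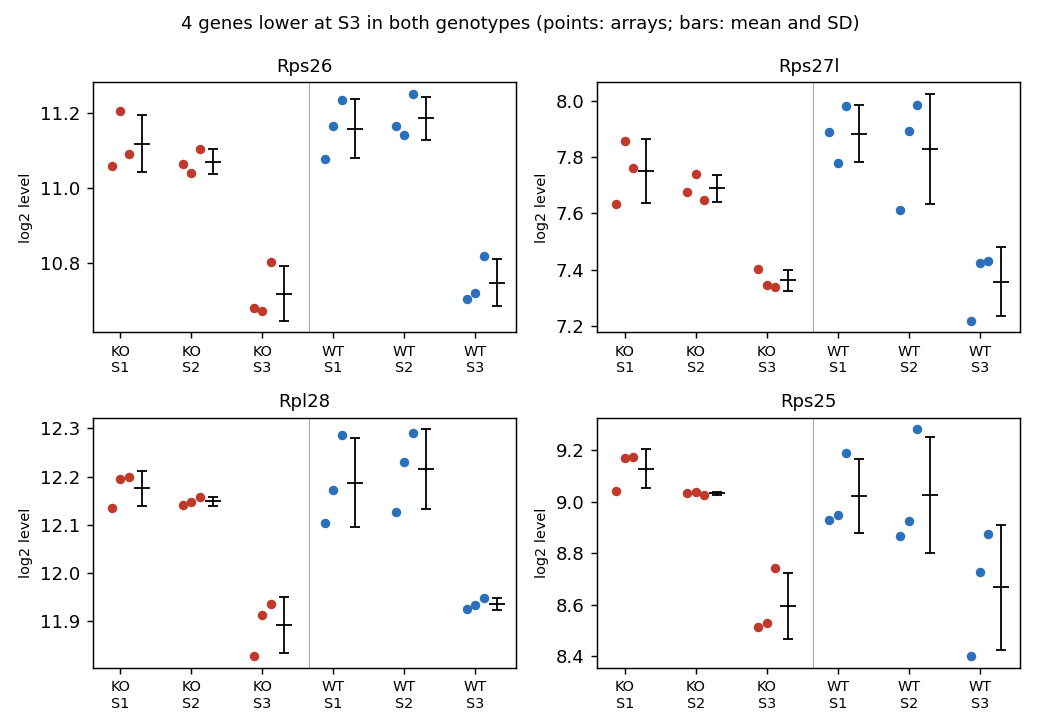
Log2 level of Rps26, Rps27l, Rpl28 and Rps25 on each array by genotype and stage (Mst1KO red, WT blue; KO stands for Mst1KO), with the mean and SD of each group of 3. In both genotypes the S3 arrays are the lowest of each panel, except that the highest Rps25 array of WT S3 (8.88) overlaps WT S2.

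Other genes passed the test in 1 genotype. Rpl5 binds the 5S RNA together with Rpl11. It read 6.67, 6.27 and 6.34 at S3 in Mst1KO and 5.85, 6.02 and 5.63 at S3 in WT, where all 3 arrays were below the S1 arrays (6.50, 6.48 and 6.50). It fell by 0.66 ± 0.17 against S1 in WT (adjusted p = 0.00545, kept without any 1 array), by 0.61 against S2 (adjusted p = 0.0135, kept in 3 of 6 such fits), and differed by 0.008 in Mst1KO (adjusted p = 0.981, limma). The difference between these changes did not pass (0.66 ± 0.24, adjusted p = 0.285), and neither did Mst1KO against WT at S3 (0.59 ± 0.17, adjusted p = 0.0636). A second Rpl5 probe set, which also lists the pseudogene Rpl5-ps2, differed between S3 and S1 by -0.057 in Mst1KO and -0.57 in WT.

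Rps18 also fell at S3 in Mst1KO, by 0.44 against S2 (adjusted p = 0.0229, kept in 3 of 6 fits without an array) and by 0.48 ± 0.13 against S1 (adjusted p = 0.00908), and differed by 0.31 ± 0.13 in WT (adjusted p = 0.0738, limma). The Mst1KO change minus the WT change was -0.79 ± 0.18 (adjusted p = 0.0605), the nearest to the threshold among the 62 genes. The Mst1KO call against S1 was lost without Mst1KO S1 replicate 1 or Mst1KO S3 replicate 1 and with probe sets averaged (adjusted p = 0.0536, 0.058 and 0.158). Its second probe set differed between S3 and S1 by 0.065 in Mst1KO and -0.35 in WT (adjusted p = 0.778 and 0.0481). No ribosomal protein gene was called for a difference between genotypes in the change over stages: 0 of 62 for S1 to S2 (0.0153% of all genes), 0 for S2 to S3 (0.368%) and 0 for S1 to S3 (0.56%), with 1, 5 and 4 genes at an unadjusted p under 0.05, where 6.77%, 11.2% and 10.7% of all genes passed (limma).

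Rpl3, a protein of the peptidyl transferase centre, read 7.96, 7.85 and 7.99 at S3 in Mst1KO, against 8.43, 8.46 and 8.46 at S2. It fell by 0.52 ± 0.11 against S2 (adjusted p = 0.0032, limma), in every fit without 1 array, and differed by -0.19 in WT (adjusted p = 0.243). A second probe set, with a mean level of 8.15, differed by 0.37 in the other direction (adjusted p = 0.42), and with the probe sets averaged the difference was -0.0023 (adjusted p = 0.995). The fall of 0.31 against S1 (adjusted p = 0.0436) was kept in 1 of 6 fits without an array, that without Mst1KO S1 replicate 2 (adjusted p = 0.0272). Rpl37a, a zinc-binding large subunit protein, fell by 0.47 ± 0.12 against S2 in Mst1KO (adjusted p = 0.015). Rpl32, a large subunit protein, fell by 0.36 ± 0.12 (adjusted p = 0.0442). Rpl15, a large subunit protein, fell in WT by 0.23 ± 0.07 against S1 (adjusted p = 0.0214) and by 0.24 against S2 (adjusted p = 0.0285), and in Mst1KO differed by -0.19 and -0.17. Among the 6 fits without 1 array, Rpl37a was kept in 3, Rpl32 in 2, and Rpl15 in 2 against either stage.

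The 4 genes that rose against S1 in WT included Rpl38, which in mouse embryos is needed for translation of Hox mRNAs. It read 12.01, 12.01 and 11.98 at S3 in WT, against 11.69, 11.73 and 11.84 at S1, a difference of 0.25 ± 0.08 (adjusted p = 0.0215, limma), and 0.071 in Mst1KO (adjusted p = 0.572). Rpl13, a large subunit protein, rose by 0.24 ± 0.08 (adjusted p = 0.0271) and differed by -0.055 in Mst1KO. Rpl22l1, the paralog that can take the place of Rpl22, rose by 0.37 ± 0.11 in WT (adjusted p = 0.0186), with 1 S3 array (5.82) below the highest S1 array (5.85). Rps16, a small subunit protein, rose by 0.64 ± 0.22 (adjusted p = 0.0355), on a dim probe set with a mean level of 4.90 where the array medians were 4.81 to 4.93. These WT calls were kept in 3 fits without an array for Rpl13 and Rpl22l1, 2 for Rpl38 and 1 for Rps16, of 6 each. Centring each array on its median gave 5 higher and 3 lower calls in place of 4 and 6.

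Of the 62 genes, 16 (25.8%) were called in at least 1 of the 9 comparisons and 46 in none, where 44.5% of all 13034 genes were called in at least 1. Among paralogs, Rpl22 differed from S1 to S3 by -0.19 ± 0.11 in Mst1KO and -0.20 ± 0.11 in WT (adjusted p = 0.240 and 0.197), while Rpl22l1 differed by 0.072 in Mst1KO (adjusted p = 0.718). Rpl39l, Rps4l and Rpl7l1, like genes of Rpl39, Rps4x and Rpl7, were called nowhere. The stalk proteins Rplp0, Rplp1 and Rplp2, which bind elongation factors, were called in no comparison, nor was Rpl11, Rps14 or Rpl10a. Rplp1 read 12.94, 12.87 and 13.01 at S3 in Mst1KO and 13.06, 13.06 and 12.96 at S3 in WT.

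The 6 genes that did not pass the filter were Rpl27a, Rpl30, Rps15, Rpl10l, Rpl3l and Rpl32l. Their values lay between 2.17 and 4.77 on all arrays. Rpl27a, Rpl30 and Rps15 are ordinary ribosomal proteins, and their low values here are those of probe sets that name the gene alone. Several proteins, among them Rpl10, Rpl13a, Rpl36a and Rpl36al, are read only by probe sets that also list other genes, and were not analysed here as genes of the set. Of the 22 genes with more than 1 tested probe set, 21 had distinct values, and for 10 of the 21 the probe sets pointed both ways in Mst1KO against WT at S3.

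Mitochondrial ribosomal proteins, which serve the separate ribosome of mitochondria, are the nearest set to compare. Against S1, 17 of 70 tested genes were lower and 1 higher at S3 in Mst1KO, and 29 lower and 1 higher in WT, with medians of -0.19 in Mst1KO and -0.28 in WT. Over all genes, 14.4% were lower in Mst1KO and 18.4% in WT. The cytosolic medians for the same comparison were -0.065 in Mst1KO and -0.008 in WT, and the WT one changed sign with scaling (-0.050 to 0.042). Mrpl57, Mrpl49, Mrps25 and Mrpl15 had the lowest p of the set in WT, with falls of 0.78, 0.76, 0.87 and 0.63 (adjusted p from 2.58e-05 to 0.000109, limma). In Mst1KO against WT at S3, 62 of 70 were above 0 with a median of 0.12 (0.065 to 0.12 over the scalings). Of the 70, 1 was called, Mrps25 (0.58 ± 0.13, adjusted p = 0.0259, limma), where 3.4% of all genes were called. The cytosolic genes had 48 of 62 below 0 there. Whether the lists differ was not tested, since genes of a list are not independent replicates.

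Ribosome assembly factors lay on the same side as the mitochondrial set between stages. Of 20 tested, 7 were lower at S3 than at S1 in Mst1KO and 10 in WT, with 0 higher in either, against the same shares of all genes. Wdr12, of the large subunit assembly complex, fell by 0.54 ± 0.13 in Mst1KO and 1.07 ± 0.13 in WT. Nop58, a box C/D snoRNP core protein, fell by 0.46 ± 0.08 in Mst1KO and 0.65 ± 0.08 in WT (all adjusted p at most 0.00467, limma). The 7 cycling genes tested were all called lower at S3 than at S1 in both genotypes, where 14.4% of all genes were lower in Mst1KO and 18.4% in WT. In Mst1KO against WT at S3, all 7 were above 0 with a median of 0.33, and 1 was called, where 3.4% of all genes were. At S1 and S2 all 7 were below 0 (medians -0.14 and -0.32) and 0 were called. The part of cycling in the ribosomal protein results was not tested.

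Of 15 tested elongation factor and other mRNAs known to begin with a pyrimidine run, 13 were below 0 in Mst1KO against WT at S3 and at S2, and 14 at S1, and 1 was called. This was Eif4b, an initiation factor, at S3 (-0.31 ± 0.08, adjusted p = 0.0344, limma), where 1.05% of all genes were called lower. Rpsa and Fau, ribosomal proteins whose symbols fall outside the choice, differed by -0.17 and -0.12 at S3 (adjusted p = 0.412 and 0.475). Of 16 genes of mTORC1 and its regulators, 0 were called between genotypes at any stage, where 0.33%, 1.17% and 3.4% of all genes were called at S1, S2 and S3. Against S1, 3 rose and 3 fell at S3 in Mst1KO, where 26.6% of all genes were called, and 3 rose and 2 fell in WT, where 33.8% were, so the WT count is near the background. Among them were Sesn1, an inhibitor upstream of mTORC1 (0.67 in Mst1KO and 0.99 in WT), and Eif4e, the cap-binding factor (-0.55 in Mst1KO and -0.64 in WT).

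**Figure D5:**
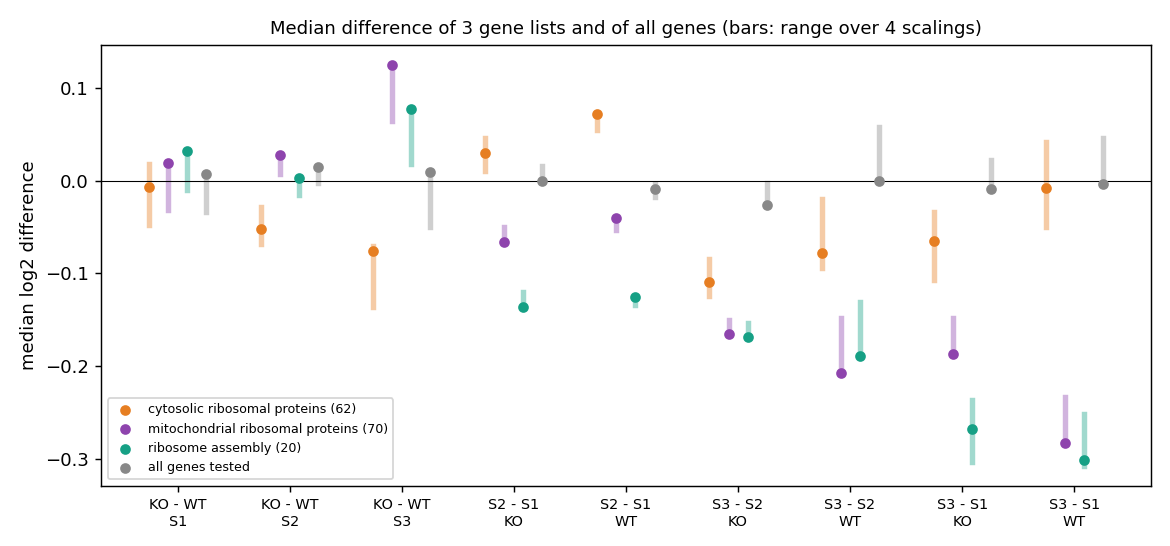
Median log2 difference in the 9 comparisons (named as group minus group; KO stands for Mst1KO) for the 62 cytosolic ribosomal protein genes, 70 mitochondrial ribosomal protein genes, 20 ribosome assembly genes and all 13034 genes tested, with bars for the range over the deposited values and 3 other scalings. At S3 against S1 in WT the cytosolic median is -0.008 and the mitochondrial median -0.28.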

How the data were processed

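RNA of sorted cells was amplified with the NuGEN WTA Pico v2 kit and hybridised to MoGene 2.0 arrays, per the labels' protocols. The deposited values are on the log2 scale. The submitters' processing notes name RMA and, as software, Affymetrix Expression Console 1.1. RMA equalises the arrays' overall distributions, so a shift of all RNA cannot be seen. Genes were named from the platform annotation: 23521 of 41345 probe sets have 1 symbol, 1814 several (not used as genes) and 16010 none. Probe affinity differs, so a level of 1 probe set is not comparable with that of another.

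Group means of all 18 arrays were fitted with limma 3.58.1 (lmFit, eBayes; R 4.3.3), with Benjamini-Hochberg adjustment over 13034 genes, called at an adjusted p under 0.05. The number of arrays, 3 per group, limits the precision. The genes and lists were chosen with earlier results of these data known. Named genes are all called ones, listed paralogs, stalk and well-studied proteins, genes that failed the filter, and up to 4 of lowest p from other lists. The fit was tested on simulated data. Alternatives changed the filter, scaling, variance model, array weights, probe set summary, arrays fitted, replicate block and array left out. Start sequences are RefSeq's (GRCm38.p6). Figures were drawn with matplotlib in Python.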

Additional observations from a re-analysis of the deposited data

How the results depend on the processing

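With 3 arrays per group, calls near the threshold were fragile. Of 129 median differences of the ribosomal protein genes under other settings, 120 moved by less than 0.0382, the SD of the per-array median between replicates, and so did 84 of 90 medians without 1 array. Some medians are smaller than this SD, such as -0.007 for Mst1KO against WT at S1 and -0.008 for S3 against S1 in WT. These counts therefore do not show that a median kept its sign or size. Calls lower in Mst1KO at S3 numbered 0 with no filter, with probe sets averaged and with only the groups compared, and 6 with a variance trend and robust fit. At S2 they numbered 1 with a filter at the 75th percentile or median centring and 3 with the trend. For S3 against S1 in Mst1KO, calls higher were 1 with the stricter filter, repeated quantile normalization, the trend or array weights, and 2 with only the groups compared, and calls lower were 10 with the trend. In WT the same comparison gave 2 higher with no filter, 7 with the trend and 1 with only the groups compared, and 3 lower with median centring or only the groups compared. For S3 against S2 in WT, 9 were lower with the trend and 3 with only the groups compared. Probe sets averaged gave 1 call higher for S2 against S1 in WT, and turned Rps18 for S3 against S1 in WT to -0.02. The difference of the S1 to S3 change gave 1 lower call with the stricter filter, the trend or array weights. Median centring gave medians of -0.048 and -0.136 for Mst1KO against WT at S1 and S3, -0.020 and 0.042 for S3 against S2 and against S1 in WT (-0.033 with cyclic loess for the first), and -0.073 for the difference of the S2 to S3 change. Repeated quantile normalization gave -0.107 for S3 against S1 in Mst1KO and -0.050 in WT, and the stricter filter gave 0.037 in WT. The causes were not tested.

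Without 1 array, calls lower ranged over 0 to 2 for Mst1KO against WT at S3, 2 to 7 and 4 to 7 for S3 against S2 and S1 in Mst1KO, and 2 to 7 and 3 to 7 in WT. Calls higher ranged over 0 to 1 for S3 against S1 in Mst1KO, S2 against S1 in WT and S3 against S2 in WT, and 1 to 4 for S3 against S1 in WT. Medians ranged over 0.030 to 0.110 for S2 against S1 in WT, -0.127 to -0.046 for S3 against S2 in WT and -0.014 to 0.040 for S3 against S1 in WT. They ranged over -0.093 to -0.027 for the difference of the S1 to S2 change and -0.069 to -0.0015 for that of the S2 to S3 change.

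The replicate numbers of the labels were tried as a replicate block. Deviations of same-numbered arrays correlated at -0.067 to 0.206, over 0.1 in 3 of 45 pairs. All 3 were among the 18 pairs of the same genotype and number, and 15 of 18 arrays correlated best with their own number, a hint from the data and not from the design. The numbers were not taken to pair the samples. With the block, calls lower in Mst1KO at S3 numbered 1, and with a block of genotype and number 1 gene was called higher for S3 against S1 in Mst1KO.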

Other observations

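Probe sets that list a ribosomal protein gene together with other genes were left out of the counts above. Of 57 such probe sets, 56 passed the filter and were read in a fit over all probe sets. At S3 against S1, 5 were called higher and 6 lower in Mst1KO, where 26% of probe sets were called, and 9 higher and 1 lower in WT, where 33.3% were (limma). The probe set naming Snora70, Gm5621 and Rpl10 was higher at S3 than at S1 by 0.94 in Mst1KO and 1.15 in WT (adjusted p = 0.00521 and 0.000808), and the one naming Flt3l and Rpl13a by 0.57 in Mst1KO and 0.82 in WT (adjusted p = 0.00836 and 0.000379). The probe set naming Snord68, Rpl13 and Rpl13-ps6 differed by 1.04 in Mst1KO, where it was not called (adjusted p = 0.0645), and was higher by 1.91 in WT (adjusted p = 0.00118). These were chosen after their values were seen, and a signal from the small nucleolar RNA or from the other listed gene cannot be told apart from one of the ribosomal protein mRNA.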
